A study of Mus musculus with 48 samples.

Results

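SMAD proteins carry the signal of the TGF-β receptors to the nucleus, and several of the genes they switch on encode proteins that restrain the same signal. Smad7 blocks the activated receptor and brings in the ubiquitin ligases Smurf1 and Smurf2, while Ski, Skil (SnoN) and Tgif1 are corepressors that act on SMAD complexes at DNA. Pmepa1 holds receptor-activated SMADs away from the receptor, and Bambi is a decoy receptor without a kinase domain. In many cell types some of these genes are used as early markers of TGF-β signalling. The 8 genes were taken by symbol from a table of 49671 genes, and all 8 were among the 12203 genes with enough counts to be tested.

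The cells were NMM, a melanoma line of the mouse that carries a mutated NRAS gene, and poly(A) RNA was sequenced in 48 stranded bulk libraries. Cells were left unstimulated or kept continuously with TGF-β at 10 ng/ml, IFNγ at 0.01, 1 or 100 ng/ml, TNF at 0.1, 1 or 10 ng/ml, IFNγ at 100 ng/ml with TNF at 10 ng/ml (called the combination here), IFNα1 at 5000 U/ml, lymphotoxin α1β2 at 2 ng/ml or IL-2 at 6000 U/ml. Each of these 12 conditions had 1 library at 2, 6, 12 and 24 h, so the 4 libraries of a condition are durations and not replicates. All conditions shared the same line, genotype and medium. A level is given as CPM, the count scaled to the total of the tested genes adjusted by TMM factors, and a change is a log2 ratio of levels. A gene was called higher or lower where the mean change over the 4 durations had an adjusted p under 0.05 over all tested genes.

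Libraries held 5612907 to 9663207 counts, so 1 count was worth 0.103 to 0.178 CPM on the plain library total. The CPM of the marker genes below are also on that plain total. Mitochondrial genes took 0.513 to 1.44% of the counts, with the TGF-β libraries at 0.844 to 1.40%. Of 8 melanocyte markers, Mitf had 3.50 to 12.6 CPM, while Dct and Mlana had 0 counts over the 48 libraries. Tyr, Tyrp1 and Sox10 had 2 counts each, and Pmel and S100b had 152 and 99 counts. The lineage markers of the labelled cell type were thus mostly absent. The 4 T and NK cell markers had 0 counts, and of the 4 leukocyte markers Adgre1, Lyz2 and Ptprc had 0, 5 and 14 counts over all libraries, while Cd68 had 1.55 to 5.45 CPM. The fibroblast markers Dcn (7.01 to 47.6 CPM) and Pdgfrb (8.28 to 25.4 CPM) were detected and were not called with TGF-β (adjusted p = 0.735 and 0.909), and Lum and Col1a1 had 8 and 161 counts. Of the epithelial markers, Krt18 had 0.554 to 5.93 CPM and Cdh1 0 to 4.63 CPM. Neither was called with TGF-β (adjusted p = 0.928 and 0.141), and Krt8 and Epcam had 16 and 43 counts. The endothelial marker Cdh5, between 2.55 and 26.7 CPM, was higher with TGF-β (log2 change 1.25 ± 0.26 SE, adjusted p = 6.56e-04), while Pecam1 and Kdr had 39 and 6 counts; the part of this in the results was not tested.

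In the deposited table (build GRCm38), the protein-coding genes Skil (chromosome 3, 31095058 to 31122577), Ski (chromosome 4, 155154075 to 155222592), Smurf1 (chromosome 5, 144876495 to 144965847), Smurf2 (chromosome 11, 106820066 to 106920715), Pmepa1 (chromosome 2, 173224458 to 173276533) and Tgif1 (chromosome 17, 70844205 to 70853546) have the same ends in GENCODE M21. The RefSeq promoter windows (GRCm38.p6, 250 bases before to 50 after a start) held entries for 4 of the 8 genes: Ski, Smurf1, Smurf2 and Tgif1. All 4 were called higher with TGF-β, and their windows are shown 5′ to 3′ on the minus strand, with capitals on CAGAC or its reverse complement GTCTG, the core letters bound by SMADs. Ski, at chr4:155222486-155222785, Smurf1, at chr5:144965781-144966080, Smurf2, at chr11:106920666-106920965, and the most upstream of the 5 starts of Tgif1, at chr17:70853483-70853782, read:
Ski: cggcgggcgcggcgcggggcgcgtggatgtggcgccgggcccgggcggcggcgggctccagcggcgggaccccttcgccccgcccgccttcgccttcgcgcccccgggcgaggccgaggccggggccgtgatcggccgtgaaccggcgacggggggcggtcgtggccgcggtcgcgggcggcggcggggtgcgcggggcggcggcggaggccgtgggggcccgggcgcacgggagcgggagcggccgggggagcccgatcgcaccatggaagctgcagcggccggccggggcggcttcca
Smurf1: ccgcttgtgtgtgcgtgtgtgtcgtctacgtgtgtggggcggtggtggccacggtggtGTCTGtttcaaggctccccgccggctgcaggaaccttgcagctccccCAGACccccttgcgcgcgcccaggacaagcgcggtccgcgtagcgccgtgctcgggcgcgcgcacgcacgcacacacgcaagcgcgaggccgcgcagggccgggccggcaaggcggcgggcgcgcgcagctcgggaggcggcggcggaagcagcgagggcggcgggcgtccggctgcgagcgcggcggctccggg
Smurf2: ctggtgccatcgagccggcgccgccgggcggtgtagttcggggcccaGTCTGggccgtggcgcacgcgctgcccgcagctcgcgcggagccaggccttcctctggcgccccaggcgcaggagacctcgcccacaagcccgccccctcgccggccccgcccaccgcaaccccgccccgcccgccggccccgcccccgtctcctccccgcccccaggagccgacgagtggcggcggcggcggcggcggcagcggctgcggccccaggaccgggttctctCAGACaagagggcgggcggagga
Tgif1: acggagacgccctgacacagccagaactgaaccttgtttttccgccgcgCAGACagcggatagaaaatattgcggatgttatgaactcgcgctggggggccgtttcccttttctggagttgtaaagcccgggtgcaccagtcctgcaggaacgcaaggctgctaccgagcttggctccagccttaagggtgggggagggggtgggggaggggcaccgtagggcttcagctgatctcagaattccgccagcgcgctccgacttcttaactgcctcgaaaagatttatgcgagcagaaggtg

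The Smurf1 window held 2 matches of CAGAC on either strand, starting at bases 59 and 106 counted from its 5′ end, and the Smurf2 window also held 2, at bases 48 and 278. The Tgif1 window shown held 1 match at base 50, its other 4 windows held between 0 and 2, and the Ski window held 0. Of all 32851 promoter windows, 49.6% held a match. Further motifs were searched, also on both strands. The palindrome GTCTAGAC, which does not contain CAGAC, stood in 0 of the windows of these genes and in 0.213% of all, and the AP-1 site TGANTCA in 0 of them and in 7.81% of all. The GAS element TTCNNNGAA stood in 1 window of Tgif1 and in 8.30% of all. A match is a run of letters and not a bound site.

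With TGF-β, 7 of the 8 genes were called higher than in unstimulated cells and 0 lower, against a background of 5.02% of all tested genes called higher. The median change of the 8 was 0.48, and that of all tested genes was -0.01. Pmepa1 and Smad7 changed most, Skil, Ski and Tgif1 by less, and both Smurf ligases least, while Bambi was not called. At every duration the TGF-β library exceeded the unstimulated one for 7 of the 8 genes, as it did for 14.2% of all tested genes. For Smad7, Skil, Ski, Smurf2 and Pmepa1 the TGF-β library was the highest of the 12 conditions at all 4 durations, which held for 2.75% of all tested genes. The whole TGF-β range lay above the whole unstimulated range for 4 genes, Smad7, Ski, Smurf2 and Pmepa1, against 3.25% of all tested genes.

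**Figure D1:**
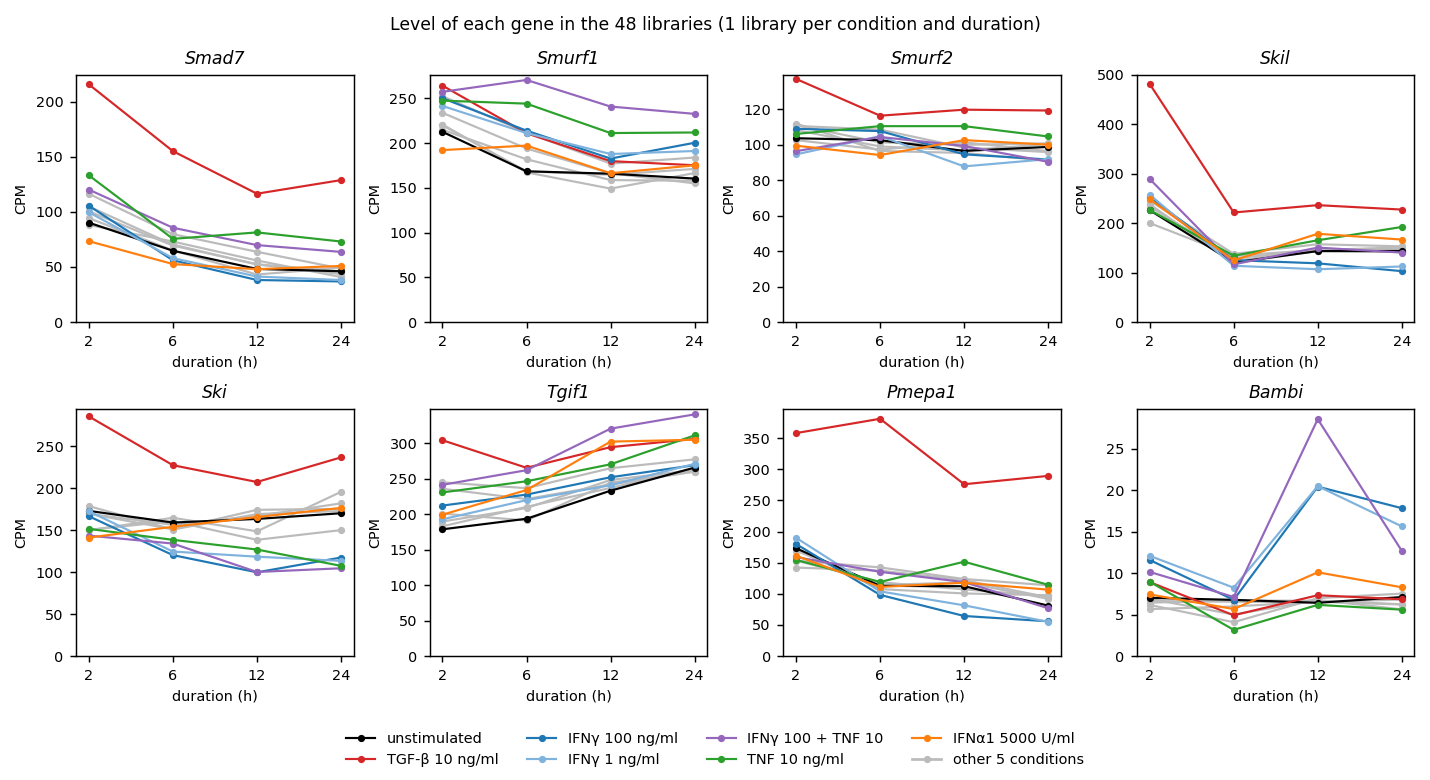
Level of each of the 8 genes in the 48 libraries, in CPM on a linear axis from 0, against the duration in hours (evenly spaced); each point is 1 library and each line 1 condition. The TGF-β line is the highest throughout for Smad7, Smurf2, Skil, Ski and Pmepa1, whereas Bambi is highest in the libraries with IFNγ at 1 or 100 ng/ml.

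Smad7, the inhibitory SMAD (chromosome 18, 75367529 to 75395935), had 215.9, 155.2, 116.6 and 128.9 CPM with TGF-β at 2, 6, 12 and 24 h, and 90.3, 64.8, 48.2 and 46.1 CPM without stimulus. Every TGF-β library was above every unstimulated one. The ratio at a single duration was 1.26, 1.26, 1.27 and 1.48 on the log2 scale, and the mean change was 1.32 ± 0.11 (SE, adjusted p = 1.11e-11). At 2 h the 11 other conditions lay between 73.4 and 133.3 CPM, and at 24 h between 36.9 and 73.1 CPM.

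The E3 ubiquitin ligase Smurf2 had 137.1, 116.3, 119.7 and 119.2 CPM with TGF-β and 103.6, 102.5, 96.5 and 98.7 CPM in unstimulated cells, in order of duration. These ranges did not overlap, although the change was small (0.29 ± 0.05, adjusted p = 0.000128). Its relative Smurf1 had 264.2, 210.9, 179.8 and 175.2 CPM with TGF-β against 212.5, 168.4, 165.8 and 160.3 CPM, and these ranges overlapped. The TGF-β library was the highest of the 12 for Smurf1 only at 2 h, and other conditions exceeded it later. The change of Smurf1 was 0.22 ± 0.06 (adjusted p = 0.0153), and the call was lost without the 6 h libraries (0.19) and without the 12 h libraries (0.26).

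Among the corepressors, Skil had 482.0, 221.7, 236.6 and 227.6 CPM with TGF-β and 226.4, 120.7, 143.6 and 143.7 CPM in unstimulated cells. The 2 h libraries were the highest under both conditions, and the lowest TGF-β value lay just under the highest unstimulated one. Its mean change was 0.84 ± 0.11 (adjusted p = 2.56e-07). Ski had 285.4, 227.3, 207.3 and 236.6 CPM with TGF-β, above the 172.9, 159.0, 163.3 and 170.1 CPM of unstimulated cells without overlap (0.52 ± 0.11, adjusted p = 0.00169).

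Tgif1, a homeodomain corepressor, had 304.4, 265.6, 294.6 and 306.3 CPM with TGF-β. Unstimulated cells had 178.8, 193.7, 233.3 and 265.9 CPM, rising with duration towards the TGF-β level. The mean change was 0.45 ± 0.07 (adjusted p = 3.59e-06), and the log2 ratio was 0.77 at 2 h, 0.45 at 6 h, 0.34 at 12 h and 0.20 at 24 h. The TGF-β library ranked first at 2 and 6 h and behind other conditions at 12 and 24 h. In a model with a slope on log2 hours, the TGF-β effect on Tgif1 changed by -0.16 ± 0.03 per doubling of the hours (adjusted p = 0.00577), while 0.795% of all tested genes had a falling slope by the same test. It was the only called slope among the 8 genes under TGF-β; that of Skil was -0.12 ± 0.04 (adjusted p = 0.18) and that of Pmepa1 0.17 ± 0.08 (adjusted p = 0.354).

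At the membrane, Pmepa1 had 358.0, 381.0, 275.9 and 289.3 CPM with TGF-β and 173.2, 112.8, 112.2 and 81.1 CPM in unstimulated cells. The groups did not overlap, and the mean change was 1.50 ± 0.16 (adjusted p = 4.27e-08). Its ratio to the unstimulated library was lowest at 2 h (1.05) and higher at 6, 12 and 24 h (1.75, 1.30 and 1.83 on the log2 scale). The decoy receptor Bambi (chromosome 18, 3507957 to 3516404) had 8.9, 4.9, 7.3 and 6.9 CPM with TGF-β and 7.0, 6.8, 6.4 and 7.1 CPM without stimulus, above it at 2 and 12 h and below it at 6 and 24 h. Its change was 0.00 ± 0.25 (adjusted p = 0.998), with an unadjusted 95% interval of -0.51 to 0.52. Bambi was the least abundant of the 8, at 26 to 184 counts per library, so small changes could not be resolved.

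**Figure D2:**
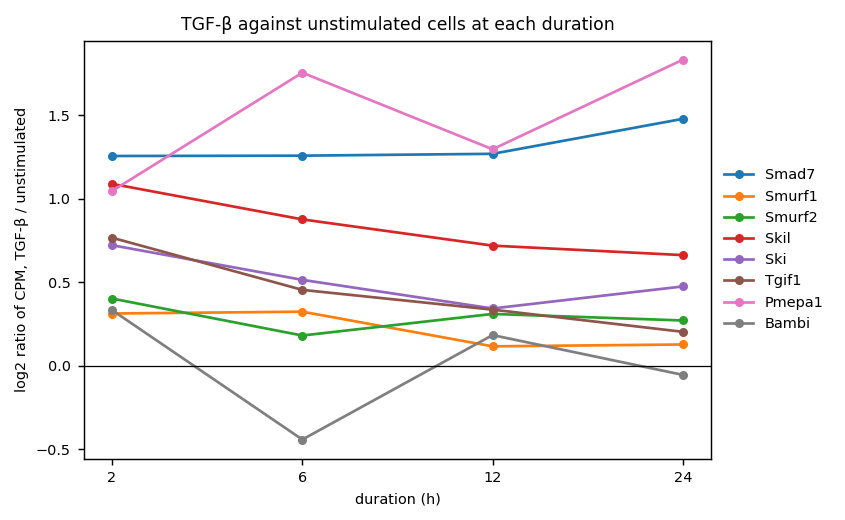
Log2 ratio of CPM (prior count 2) between the TGF-β library and the unstimulated library of the same duration, for the 8 genes; 1 library each, so no error is drawn. Smad7 stays between 1.26 and 1.48. Skil, Ski, Smurf2, Tgif1 and Bambi are highest at 2 h, and Bambi lies on both sides of 0.

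Compared per length of the annotated exons, the unstimulated levels ran from 38.7 ± 7.0 CPM per kb for Tgif1 over 29.9 ± 1.1 for Ski, 27.9 ± 3.8 for Smurf1, 24.4 ± 7.8 for Pmepa1, 16.4 ± 4.8 for Skil, 16.3 ± 0.5 for Smurf2 and 13.8 ± 4.5 for Smad7 to 1.35 ± 0.06 for Bambi (SD over the 4 durations). From Ski down to Smad7, each gene overlapped the next within these spreads. Tgif1 did not overlap Ski, the next below it, but did overlap Pmepa1, and only Bambi stood apart from all others. With TGF-β, Pmepa1 reached 66.4 ± 10.4 CPM per kb, above Tgif1 at 52.0 ± 3.3 by more than these spreads, and Smad7 reached 34.1 ± 9.8.

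Other stimuli were then compared with unstimulated cells. TNF at its highest dose, 10 ng/ml, gave 3 of the 8 with a call upwards (background 9.83%) and 1 with a call downwards (background 7.30%). Smad7 had 133.3, 75.6, 81.4 and 73.1 CPM with this dose at 2, 6, 12 and 24 h, above the unstimulated library at each duration (0.55 ± 0.11, adjusted p = 0.00037). Smurf1 had 247.4, 244.0, 211.1 and 211.8 CPM, again above it at each duration (0.38 ± 0.06, adjusted p = 2.95e-05). Tgif1 also rose (0.29 ± 0.07, adjusted p = 0.00188). Ski fell, with 151.5, 138.5, 126.9 and 107.5 CPM (-0.35 ± 0.12, adjusted p = 0.033), and this call was lost when the 6 h, 12 h or 24 h libraries were left out (-0.39, -0.33 and -0.25) and with no filter on low counts (adjusted p = 0.106). With TNF at 1 ng/ml, Smurf1 (0.22 ± 0.06, adjusted p = 0.0441) and Tgif1 (0.25 ± 0.07, adjusted p = 0.0287) were called higher, with 2.01% of all tested genes. TNF at 0.1 ng/ml called 0 of the 8 genes and 0.0164% of all. Between 10 and 1 ng/ml of TNF, 0 of the 8 genes and 0.238% of all differed by the test.

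IFNγ at 100 ng/ml gave 2 genes called higher, Smurf1 and Bambi (background 12.8%), and 1 lower, Ski (background 9.30%). Smurf1 had 250.1, 213.8, 182.7 and 200.3 CPM, each above the unstimulated library of that duration (0.26 ± 0.06, adjusted p = 0.00213). Ski had 166.5, 120.3, 99.8 and 117.4 CPM, near the unstimulated level at 2 h and below it later (-0.41 ± 0.12, adjusted p = 0.00901). That call was lost without the 6 h, 12 h or 24 h libraries (-0.41, -0.31 and -0.36). Smad7 had 105.6, 56.1, 38.2 and 36.9 CPM, above the unstimulated library at 2 h and below it at the other durations. Its mean change was not called (-0.13 ± 0.11, adjusted p = 0.433, unadjusted 95% interval -0.36 to 0.10). At 1 ng/ml the same 3 genes were called: Smurf1 (0.24 ± 0.06, adjusted p = 0.00779) and Bambi higher (background 9.51%), and Ski lower (-0.34 ± 0.12, adjusted p = 0.0407, background 5.47%). Between 100 and 1 ng/ml, 0 of the 8 genes and 0% of all differed by the test.

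Bambi under IFNγ exceeded the unstimulated level at 2 h, was near it at 6 h and was highest at 12 and 24 h. At 2 h it had 11.6 CPM with 100 ng/ml, 12.1 with 1 ng/ml and 10.2 with the combination, against 7.0 in the unstimulated library. At 6 h the values were 6.8, 8.3 and 7.1 against 6.8 CPM, at 12 h 20.4, 20.5 and 28.6 against 6.4 CPM, and at 24 h 17.8, 15.6 and 12.7 against 7.1 CPM. At 2, 12 and 24 h these 3 libraries were the highest of the 12, and the next was TNF at 10 ng/ml with 9.0 CPM at 2 h and IFNα1 with 10.1 and 8.3 CPM at 12 and 24 h. The mean change was 0.99 ± 0.24 at 100 ng/ml (adjusted p = 0.00205), 0.98 ± 0.24 at 1 ng/ml (adjusted p = 0.0033) and 0.99 ± 0.23 for the combination (adjusted p = 0.000737). The change at 100 ng/ml missed the threshold without the 24 h libraries (0.86, adjusted p = 0.0636), and that of the combination missed it without the 12 h libraries (0.50) and in the compared groups alone (0.92, adjusted p = 0.0999). With 0.01 ng/ml it was -0.20 ± 0.26, and with 10 ng/ml of TNF -0.24 ± 0.26 (adjusted p = 0.571).

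Under IFNγ, Pmepa1 and Skil stood differently to the unstimulated libraries early and late. Pmepa1 had 180.0, 98.3, 64.4 and 55.9 CPM with 100 ng/ml, near the unstimulated level at 2 h and below it at the other durations. Its mean change of -0.31 ± 0.17 was not called (adjusted p = 0.181), but in the 12 and 24 h libraries alone it was -0.67 (adjusted p = 0.0018). Skil had 253.3, 125.3, 118.8 and 103.0 CPM, above the unstimulated library at 2 and 6 h and below it at 12 and 24 h. Its effect changed by -0.18 ± 0.04 per doubling of the hours (adjusted p = 0.00953), with 3.43% of all tested genes falling by this test. At 1 ng/ml the slope of Skil was -0.17 ± 0.04 (adjusted p = 0.0197), with 2.70% of all falling. Skil alone of the 8 genes had a called slope at these doses, so the slope of Pmepa1 was not called. These IFNγ slopes, like the dose comparisons, were added after the values were seen.

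With the combination, 4 genes were called higher (background 20.9%) and 1 lower (background 21.2%). Smad7 had 120.3, 85.7, 69.9 and 63.7 CPM (0.45 ± 0.11, adjusted p = 0.000896). Smurf1 had 257.2, 270.5, 240.8 and 232.6 CPM and was the highest of the 12 conditions at 6, 12 and 24 h (0.51 ± 0.06, adjusted p = 1.15e-08). Tgif1 rose by 0.42 ± 0.07 (adjusted p = 1.78e-06), and Ski had 143.5, 134.0, 100.2 and 104.6 CPM, below the unstimulated library at each duration (-0.47 ± 0.12, adjusted p = 0.00118).

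Set against IFNγ alone at 100 ng/ml, the combination had more Smad7 (0.58 ± 0.11, adjusted p = 0.000215), Smurf1 (0.25 ± 0.06, adjusted p = 0.00387) and Tgif1 (0.27 ± 0.07, adjusted p = 0.00348), with 8.49% of all tested genes called higher. Set against TNF alone at 10 ng/ml, only Bambi was called, and it was higher (1.23 ± 0.24, adjusted p = 0.000268, background 9.12%). Bambi in the combination and with IFNγ alone differed by 0.00 ± 0.21, with an unadjusted 95% interval of -0.44 to 0.44. A departure of the combination from the sum of the log2 changes of its parts was tested after the values were seen. This test called 0 of the 8 genes and 0.0819% of all.

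IFNα1 changed 1 of the 8 by the test, Tgif1, with 199.4, 234.2, 302.5 and 305.1 CPM (0.25 ± 0.07, adjusted p = 0.00792, background 6.18% called higher). This call was lost without the 6 h libraries (0.27) and without the 12 h libraries (0.23). With IFNγ at 0.01 ng/ml, lymphotoxin α1β2 and IL-2, edgeR called 0 of the 8 genes and 0% of all tested genes, where 229, 195 and 152 genes had an unadjusted p under 0.05. Over the 11 conditions, Smurf1 was called higher in 6, Tgif1 in 5, Smad7 and Bambi in 3 each, and Skil, Smurf2 and Pmepa1 in 1, the TGF-β condition. Ski was called higher in 1 and lower in 4. These comparisons share the unstimulated libraries.

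In order of the mean level over the 4 durations (SD in CPM), Smad7 ran from 154.2 ± 44.2 with TGF-β over 90.8 ± 28.5 with TNF at 10 ng/ml and 84.9 ± 25.3 with the combination to 56.3 ± 11.6 with IFNα1, and each condition overlapped the next within these spreads. Pmepa1 had 326.0 ± 51.3 with TGF-β, and the 11 other conditions lay between 99.7 ± 56.6 (IFNγ at 100 ng/ml) and 134.9 (TNF at 10 ng/ml, range 114.5 to 154.4), all within their spreads of one another. Skil was also highest with TGF-β, at 292.0 ± 126.8, and the rest lay at 147.7 ± 73.4 to 179.8 ± 51.5. Unlike for Pmepa1, these spreads overlapped that of TGF-β. The SDs include the change with duration. At all 4 durations the TGF-β library was the highest of the 12 conditions for both Smad7 and Skil. Smurf2 had 123.1 ± 9.4 with TGF-β and 94.7 ± 7.3 to 107.9 ± 3.0 elsewhere.

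The order differed for the remaining genes. Ski ran from 239.2 ± 33.2 with TGF-β over 166.4 ± 6.3 in unstimulated cells to 120.6 ± 21.4 with the combination, so that unstimulated cells stood between these conditions. Smurf1 was highest with the combination (250.3 ± 16.9), then with TNF at 10 ng/ml (228.6 ± 19.8), and TGF-β (207.5 ± 40.97) stood among both higher IFNγ doses and TNF at 1 ng/ml. Tgif1 had 292.7 ± 18.8 with TGF-β and 291.3 ± 47.1 with the combination, at the head of a row that ended with unstimulated cells at 217.9 ± 39.4. Bambi had 14.6 ± 9.6 with the combination and 14.2 ± 6.2 and 14.1 ± 5.2 with IFNγ at 100 and 1 ng/ml, and from 6.0 ± 2.4 to 7.9 ± 1.8 in the other 9 conditions.

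**Figure D3:**
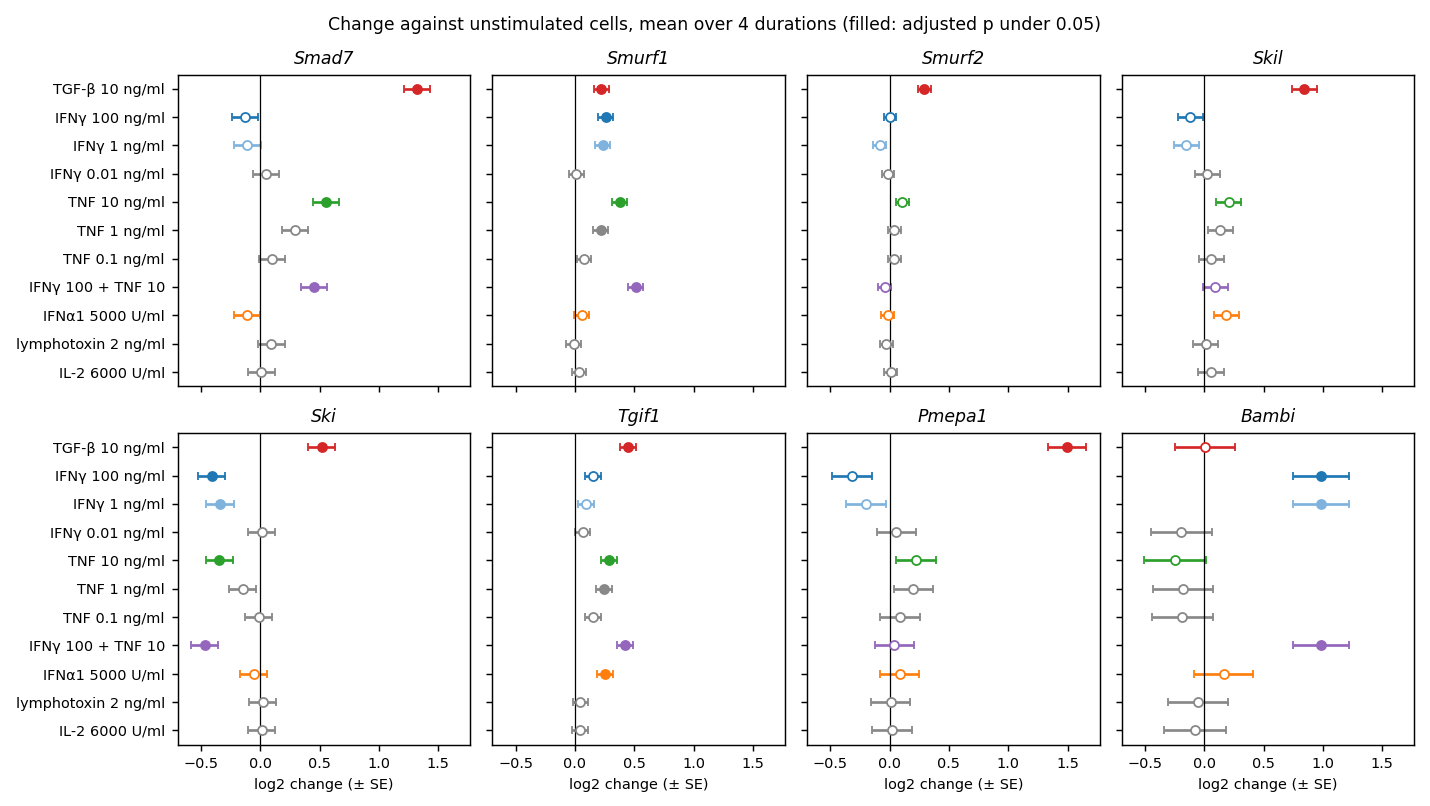
Mean log2 change over the 4 durations against unstimulated cells (point) with its standard error (bar), for 8 genes and 11 conditions; filled points have an adjusted p under 0.05. Smad7, Skil, Ski, Smurf2 and Pmepa1 lie farthest to the right with TGF-β. So does Tgif1 (0.45), with the combination close behind (0.42). Filled points of Ski lie right with TGF-β and left with IFNγ at 1 and 100 ng/ml, TNF at 10 ng/ml and the combination. The filled points of Bambi are IFNγ at 1 and 100 ng/ml and the combination.

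Whether TGF-β differed from the other stimuli was tested as a direct contrast, in which the unstimulated libraries enter only through the duration terms and the spread of the shared model. Against TNF at 10 ng/ml, TGF-β gave 5 genes a higher call (background 8.95%): Smad7 by 0.77 ± 0.10 (adjusted p = 6.37e-07), Skil by 0.64 ± 0.10, Ski by 0.86 ± 0.11, Smurf2 by 0.19 ± 0.05 (adjusted p = 0.00947) and Pmepa1 by 1.28 ± 0.16. Smurf1 (-0.15 ± 0.06, adjusted p = 0.0775) and Tgif1 (0.16 ± 0.07, adjusted p = 0.0878) missed the threshold. Their unadjusted 95% intervals were -0.28 to -0.03 and 0.03 to 0.29.

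Against IFNγ at 100 ng/ml, 6 genes were called higher with TGF-β (background 14.9%), led by Pmepa1 (1.81 ± 0.16) and Smad7 (1.45 ± 0.11), and Ski differed by 0.93 ± 0.11 (adjusted p = 4.82e-08). Bambi was called lower (-0.98 ± 0.23, adjusted p = 0.00102, background 15.9%), and Smurf1 was not called (-0.04 ± 0.06, unadjusted 95% interval -0.16 to 0.09). Against the combination, 7 genes were called, in either direction (background 43.3%): 5 were higher with TGF-β, and Smurf1 (-0.29 ± 0.06, adjusted p = 0.000191) and Bambi (-0.98 ± 0.23, adjusted p = 0.000639) were lower. Tgif1 differed there by 0.02 ± 0.07 (unadjusted 95% interval -0.11 to 0.16). Against IFNα1, 7 genes were called higher (background 13.9%), Tgif1 with the smallest margin after Smurf1 (0.19 ± 0.07 and 0.17 ± 0.06).

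Averaged over the 12 conditions, most of the 8 genes were lower at later durations. At 6 h, 6 genes were called lower than at 2 h (background 27.5%), led by Skil (-0.97 ± 0.06, adjusted p = 6.02e-16) and Smad7 (-0.58 ± 0.06, adjusted p = 3.02e-10). At 12 h, 6 were called lower (background 31.1%) and 2, Tgif1 (0.27 ± 0.04) and Bambi (0.34 ± 0.14, adjusted p = 0.0305), higher (background 34.2%). At 24 h, 5 were called lower than at 2 h (background 32.5%), with Smad7 at -1.05 ± 0.06, Pmepa1 at -0.86 ± 0.10 and Skil at -0.78 ± 0.06, and only Tgif1 higher (0.38 ± 0.04, background 34.8%). Between 12 and 24 h, a comparison added after the values were seen, Pmepa1 was lower (-0.27 ± 0.10, adjusted p = 0.0289, background 16.9%) and Tgif1 higher (0.11 ± 0.04, adjusted p = 0.0229, background 15.2%). The 24 index sequences of the libraries were each used in 1 library of 2 or 6 h and in 1 library of 12 or 24 h. A difference between the early and the late libraries and a difference between these sets of libraries cannot be told apart, whereas 6 h against 2 h and 24 h against 12 h lie within a set.

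The rest of the pathway was followed on lists of genes by role. Of 25 tested SMAD target genes, 11 were called higher with TGF-β and 3 lower, with a median change of 0.45. Beside these lists, 5.02% of all tested genes were called higher and 3.25% lower. The lipid kinase gene Sphk1 rose by 2.06 ± 0.35, the matricellular Ctgf by 1.57 ± 0.18 and Ldlrad4, itself a restrainer of SMAD phosphorylation, by 1.30 ± 0.20. The BMP-responsive inhibitors of differentiation Id2 (-1.49 ± 0.14) and Id1 (-1.09 ± 0.25) fell, as did the transcription factor Snai2 (-0.74 ± 0.11), while its relative Snai1 rose (0.95 ± 0.21, adjusted p = 0.00163). The other called target genes rose by 0.18 to 1.05: the angiogenic factor Vegfa (1.05), the matrix genes Tgfbi (0.95) and Fn1 (0.89), the integrin Itga5 (0.94), and the transcriptional regulators Zeb1 (0.67), Bhlhe40 (0.58) and Hmga2 (0.18).

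Upstream, 1 of 7 tested ligands was called higher, Inhba, a subunit of activin (0.58 ± 0.16, adjusted p = 0.0183), and 1 lower, Bmp4 (-1.55 ± 0.11, adjusted p = 2.74e-13). Of 10 receptors, Acvr1 (0.56 ± 0.07) and Bmpr2 (0.51 ± 0.07), both receptors for BMPs, were called higher and the co-receptor Tgfbr3 lower (-0.66 ± 0.13). Of 6 SMADs, Smad5 was called higher (0.32 ± 0.07), and Smad9 at -1.81 ± 0.69 was not called (adjusted p = 0.061). Among 14 other restrainers, Trim33, a ubiquitin ligase acting on SMADs, was called higher (0.35 ± 0.06), and the secreted antagonists Fst (-1.45 ± 0.18) and Chrd (-1.29 ± 0.33) lower. The median of these 14 was 0.02, against 0.48 for the 8 genes described here. The lists were chosen with earlier results of these data known.

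**Figure D4:**
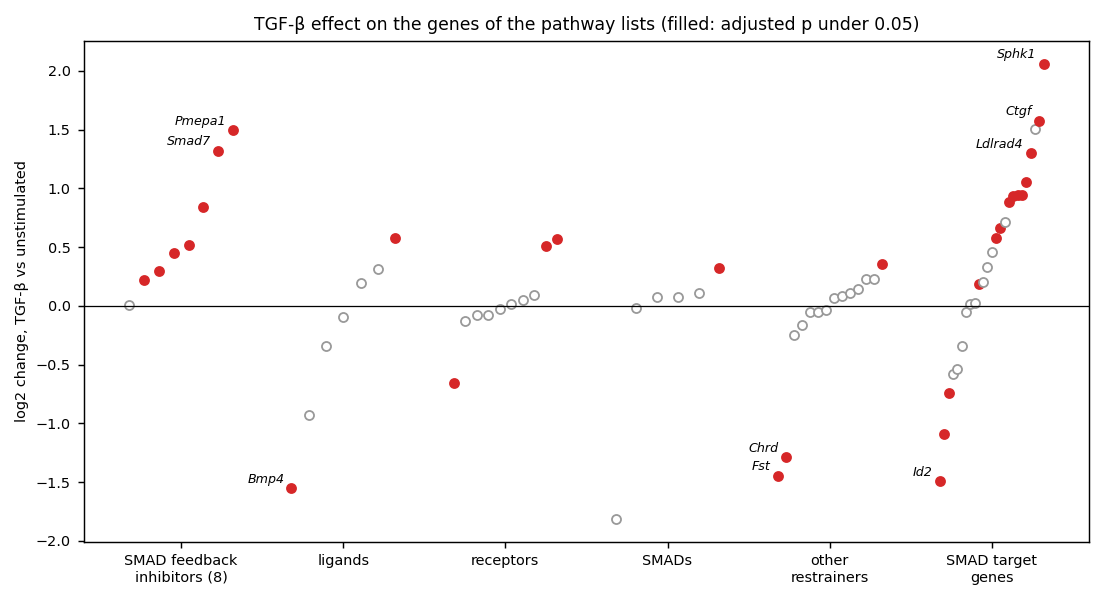
Mean log2 change with TGF-β of the tested genes in each list, 1 point per gene in order of its change; filled points have an adjusted p under 0.05, and called genes with a change of at least 1.2 in either direction are named. The 8 genes described here (left) lie at or above 0, whereas the target genes run from Id2 at -1.49 to Sphk1 at 2.06.

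How the 8 genes varied together was described over the 48 libraries, each centred on the mean of the 12 libraries of its duration. Pearson's r was 0.87 between Smad7 and Pmepa1, 0.89 between Skil and Pmepa1 and 0.83 between Smad7 and Skil. In the 44 libraries without TGF-β, a description added after the values were seen, these were 0.59, 0.73 and 0.57. Ski and Smad7 had r = 0.43 over 48 libraries and -0.16 without TGF-β. Ski and Smurf1 had -0.45 and -0.69, and Smurf1 and Tgif1 had 0.70 and 0.75. The libraries share conditions and a line, so they are not independent points.

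Among 9676 tested genes with a mean level of at least 5 CPM, those most like each gene by the same measure (n = 48 libraries) were as follows. Smad7 was most like D8Ertd82e (r = 0.916), Kctd11 and Notch2, a Notch receptor, and Skil most like the kinase Dyrk3 (0.904), B4galt1 and the growth factor Fgf2. Pmepa1 was most like the ephrin ligand Efnb1 (0.917), the collagen Col7a1 and Ust. Ski was most like Rdh10 (0.904), a retinol dehydrogenase, Unc5b, a netrin receptor, and Rflnb. Their changes with TGF-β ran from 0.51 for Unc5b to 2.63 for Col7a1; the TGF-β libraries entered the choice of these genes, so these values are a description. Smurf2 reached at most 0.822, with Chsy1 before Fgf2 and Zswim6, and Tgif1 0.836, with Aff1 before the integrin Itga5 and Aff4.

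Smurf1 was most like Inhba (0.908), Ptpn12, a tyrosine phosphatase, and Gsap. Bambi was most like Polr2g (0.906), a subunit of RNA polymerase II, Rab3ip and Psip1. The change of Polr2g with TGF-β was 0.02. Polr2g was called higher with IFNγ at 100 ng/ml (0.38) and 1 ng/ml (0.42) and with the combination (0.45), where Bambi was also called. These libraries entered the choice of Polr2g, so its values are a description. In bulk RNA, a change in every cell and a change in a share of the cells cannot be told apart.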

How the data were processed

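The authors deposited raw counts of reads per Ensembl gene. Per the submitters' processing notes, reads were aligned with HISAT to GRCm38; its version, the counter, annotation and strand setting were not given in the sources used here. Titles gave the doses. Counts were analysed here in R 4.3.3 with edgeR 4.0.16 (minimum count 10, minimum total 15, TMM factors), by a robust quasi-likelihood model with terms for stimulus and duration, fitted to the 48 libraries together (33 residual degrees of freedom; 22 in the slope model). Tests are two-sided with Benjamini-Hochberg adjustment within a comparison. Their spread is how stimulus differences vary over durations, pooled over conditions; the labels do not say whether libraries came from separate cultures. Standard errors came from the fitted information matrix, and 95% intervals are unadjusted. Single durations are log2 ratios of CPM with prior count 2 and no test. DESeq2 1.42.0 and other settings were alternatives. The code was tested on simulated data. Genes and lists were chosen with earlier results of these data known. All 8 genes were named, as were the genes of the pathway lists called with TGF-β and the 3 genes most like each. Of overlapping genes, Mir7039 held 2 counts and Gm27322 0. Promoters are RefSeq's, matched by symbol. 1 gene of the target list is not reported here.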

Additional observations from a re-analysis of the deposited data

Results flagged for a closer look

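In 2 of 96 sets of 4 libraries (a gene in a condition, each library set against the mean of its duration), 1 library stood apart from the other 3; chance flags about 1 set in 20. Ski with TNF at 10 ng/ml was lowest at 24 h, at 107.5 CPM or -0.514 on the log2 scale against the mean of that duration, while the other 3 durations lay between -0.19 and -0.129. Tgif1 with lymphotoxin was lowest at 6 h, at 191.3 CPM or -0.237, with the others between -0.115 and -0.0954.

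The effect of a stimulus changed with duration for 2 genes by the slope test: Tgif1 with TGF-β by -0.157 per doubling of the hours, and Skil with IFNγ by -0.183 at 100 ng/ml and -0.17 at 1 ng/ml.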

How the results depend on the processing

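The number of the 8 genes called was 7 for TGF-β, 3 for IFNγ at 100 ng/ml, 4 for TNF at 10 ng/ml, 5 for the combination and 1 for IFNα1, where 8.28, 22.1, 17.1, 42.03 and 9.27% of all tested genes were called. Without the duration term it was 4, 1, 0, 4 and 0, with 1.97, 5.04, 2.91, 19.6 and 1.43% of all. In the 2 and 6 h libraries alone, IFNγ called 0 (3.67% of all), TNF 2 (2.33%), the combination 3 (15.3%) and IFNα1 0 (4.05%), and in the 12 and 24 h libraries alone IFNγ called 5 (27.8%) and IFNα1 2 (9.45%). Leaving out 1 duration gave 6 to 7 for TGF-β, 1 to 4 for IFNγ, 3 to 5 for TNF, 4 to 5 for the combination and 0 to 1 for IFNα1, with 4.13 to 9.86, 8.51 to 28.1, 6.49 to 21.6, 28.1 to 46.6 and 4.6 to 11.1% of all. DESeq2, its size factors, no filter, the compared groups alone and the other reference groups kept every count within 1.5 times. The 20 called changes kept their sign in all 13 alternatives, and 36 of these 260 values missed the threshold; signs turned in 24 values of uncalled changes, all of them uncalled there too. In the 2 and 6 h libraries alone these were Bambi with TGF-β (-0.032), Smad7 (0.040) and Skil (0.12) with IFNγ, Pmepa1 with TNF (-0.051), and Pmepa1 (-0.050) and Bambi (-0.076) with IFNα1. In the 12 and 24 h libraries alone they were Smurf2 with IFNγ (-0.072) and, with IFNα1, Smad7 (0.085), Ski (0.051) and Smurf2 (0.067). Smurf2 with IFNγ had -0.0036 without a filter and -0.0074 against IL-2, and Smurf2 with IFNα1 0.00014 in the compared groups alone. Over the settings without 1 duration, Bambi had -0.13 to 0.16 with TGF-β and -0.49 to 0.016 with TNF, Skil -0.22 to 0.00084 with IFNγ and -0.00064 to 0.15 with the combination, Pmepa1 -0.027 to 0.10 with the combination, Ski -0.076 to 0.021 with IFNα1, and Smurf2 -0.017 to 0.049 with IFNγ and -0.038 to 0.035 with IFNα1. Prior counts of 0.5 and 5 moved 0 of 64 single-duration ratios beyond their counting interval. The causes were not tested. No paired analysis was possible because the labels give no replicate numbers to pair by; libraries of the same duration are matched by the duration term of the reported model, and the counts without that term are given above. Bambi's counts limit its precision.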
